A study of Mus musculus with 6 samples.

Results

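The genes described here are the 38 mouse genes that encode Wnt ligands, their Frizzled receptors and the secreted proteins that keep ligand and receptor apart, out of 50686 gene identifiers that were counted. They were taken from a list of symbols, mapped to Ensembl identifiers by GENCODE vM21, and the rule uses no measured value. The set holds 19 ligands (Wnt1 to Wnt16), 10 receptors (Fzd1 to Fzd10), 3 Dkk inhibitors, and 6 inhibitors of the Sfrp, Frzb and Wif1 kind. All 38 were present in the count files.

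Wnt proteins are lipid-modified ligands that act over short distances. A ligand binds the outer domain of a Frizzled receptor, and with the co-receptors Lrp5 or Lrp6 this stops the destruction of β-catenin, which then enters the nucleus and acts with Tcf and Lef factors on target genes such as Axin2. Frizzled receptors also signal without β-catenin, through the planar cell polarity proteins or together with Ror and Ryk. Sfrp proteins, Frzb and Wif1 bind the ligands outside the cell, whereas Dkk1 and Dkk2 block the Lrp co-receptors. In the embryonic forebrain, Wnt ligands made by the dorsal midline and by progenitors themselves control the patterning of the cortex and the choice of neural stem cells between division and differentiation.

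RNASeq covered 2 libraries of NSC, which are primary neural stem cells taken from wild-type embryos at E16.5, and 2 libraries labelled NSC Bmi1Over, from STOPFloxBmi1;NestinCre embryos of that age. In the double transgenic animals, Cre driven by Nestin removes a stop cassette from a Bmi1 transgene, so that the transgene depends on cells in which Nestin was active. Bmi1 is a subunit of the Polycomb complex PRC1. Cells came from the subventricular zone of the cerebral hemispheres and were grown as neurospheres or as an adherent layer, and how the sequenced cells were grown is not given in the sources used here. H3K27me3, the histone mark laid down by the Polycomb complex PRC2 and found at silent genes, was mapped by ChIPSeq with 1 library kept for each of these genotypes, and the mGIC libraries were not analysed here.

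Between 18112100 and 61353076 reads were counted on genes per RNASeq library, the deepest library being NSC Bmi1Over replicate 2. The share of reads that could not be mapped was 11.2% and 13.7% in NSC and 16.2% and 17.6% in NSC Bmi1Over. Bmi1 itself stood at 133 and 124 CPM (read counts scaled to the TMM-normalised library size) in NSC and at 119 and 113 CPM in NSC Bmi1Over (log2 fold change -0.15, SE 0.12, adjusted p = 0.463, quasi-likelihood F-test of edgeR, Benjamini-Hochberg adjusted over all genes), so that the transgene was not seen as a higher Bmi1 count and the libraries are called by their label, NSC Bmi1Over, throughout. Of 12 neural stem cell markers, 0 were called by edgeR, 2 had an unadjusted p under 0.05 and 1 was called by DESeq2, against 2.15%, 24.2% and 9.64% of all genes tested. Nes lay between 915 and 1148 CPM. The markers with such a p were Sox2, at 178 to 260 CPM, and Hes5, at 4.11 to 10.1 CPM, both lower in both NSC Bmi1Over libraries (log2 fold changes -0.42 and -0.73, adjusted p = 0.129 and 0.132). The 2 libraries of a group came from independent cultures by the account of the study, and the smallest two-sided p of an exact permutation test on 2 against 2 libraries is 0.333.

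The promoters of 5 members are shown because the results below turn on them. Fzd5 and Fzd9 are the receptors called between the groups, Wnt7a was the ligand with the highest level per length, Wnt3a lay under the widest H3K27me3 peak of all members with 0 counts of RNA, and Dkk1 was marked in both ChIPSeq libraries. Each line gives 300 bases of the RefSeq promoter (GRCm38.p6), from 250 bases before the start of transcription to 50 after it, 5′ to 3′ on the strand of the gene, with each CpG in capitals.
Fzd5: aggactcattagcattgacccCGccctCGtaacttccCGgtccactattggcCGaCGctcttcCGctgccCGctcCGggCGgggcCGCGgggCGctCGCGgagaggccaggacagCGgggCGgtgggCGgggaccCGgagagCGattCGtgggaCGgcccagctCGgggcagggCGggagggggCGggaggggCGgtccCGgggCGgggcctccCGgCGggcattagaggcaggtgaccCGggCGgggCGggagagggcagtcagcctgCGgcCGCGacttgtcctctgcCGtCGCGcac
Fzd9: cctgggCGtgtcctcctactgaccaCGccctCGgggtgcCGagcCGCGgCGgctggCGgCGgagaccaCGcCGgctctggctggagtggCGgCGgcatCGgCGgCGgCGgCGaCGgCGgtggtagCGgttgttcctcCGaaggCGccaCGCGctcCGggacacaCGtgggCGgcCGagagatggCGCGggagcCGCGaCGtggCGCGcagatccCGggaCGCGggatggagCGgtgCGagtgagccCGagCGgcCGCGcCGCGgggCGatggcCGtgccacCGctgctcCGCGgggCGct
Wnt7a: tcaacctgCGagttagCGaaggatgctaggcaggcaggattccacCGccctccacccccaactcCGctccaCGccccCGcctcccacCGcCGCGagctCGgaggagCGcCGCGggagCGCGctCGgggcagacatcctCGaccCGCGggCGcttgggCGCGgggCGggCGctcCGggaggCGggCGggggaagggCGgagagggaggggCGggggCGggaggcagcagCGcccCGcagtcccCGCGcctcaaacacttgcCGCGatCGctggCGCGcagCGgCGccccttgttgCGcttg
Wnt3a: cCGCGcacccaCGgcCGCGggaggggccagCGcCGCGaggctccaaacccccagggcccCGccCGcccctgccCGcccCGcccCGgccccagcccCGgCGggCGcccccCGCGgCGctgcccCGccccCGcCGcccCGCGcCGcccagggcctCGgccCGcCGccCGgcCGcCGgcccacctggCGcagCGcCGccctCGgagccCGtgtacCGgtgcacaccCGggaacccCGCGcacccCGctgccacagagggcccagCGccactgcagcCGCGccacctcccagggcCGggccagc
Dkk1: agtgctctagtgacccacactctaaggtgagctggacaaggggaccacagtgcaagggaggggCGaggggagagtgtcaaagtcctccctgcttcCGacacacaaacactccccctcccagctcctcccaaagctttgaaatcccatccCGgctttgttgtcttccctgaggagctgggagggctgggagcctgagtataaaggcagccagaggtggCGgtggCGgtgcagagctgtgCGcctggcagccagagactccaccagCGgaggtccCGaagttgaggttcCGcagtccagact

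These windows lie at chr1:64737701-64738000 (Fzd5), chr5:135250998-135251297 (Fzd9), chr6:91411304-91411603 (Wnt7a), chr11:59290702-59291001 (Wnt3a) and chr19:30549447-30549746 (Dkk1), all on the minus strand. They are placed by the RefSeq start. The GENCODE starts of Fzd9 (135251230) and Dkk1 (30549665), used for the peaks below, lie inside the windows and upstream of it. They hold 38, 53, 42, 45 and 9 CpG in that order, so that the Dkk1 window is the poorest in CpG. CpG islands are known to attract Polycomb complexes in vertebrate cells, and promoters were therefore compared by this count. The RefSeq table matched 27 members with 30 promoter windows. Their median was 25.5 CpG per 300 bases, against 7 over all 32851 windows of the table. Members with an H3K27me3 peak in NSC had a median of 25 CpG and members without one a median of 27. The TCF/LEF motif, searched as CTTTGAA or CTTTGAT on both strands, was found in 3 of the 30 windows (10%), those of Dkk1, Wnt11 and 1 of the 3 Wnt5b promoters, against 8.65% of all windows. Wnt5a, Wnt7b, Wnt8a, Wnt10a, Fzd2, Fzd3, Fzd6, Fzd8, Dkk3, Sfrp1 and Sfrp4 had no entry in the table.

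The comparison of NSC Bmi1Over with NSC asks which genes differ when the Bmi1 transgene is carried by otherwise non-neoplastic cells. Of the Wnt genes, the receptors Fzd5 and Fzd9 rose in NSC Bmi1Over, by 1.90-fold and 1.69-fold, and these were the 2 members called of the 25 with enough reads to be tested, where 2.15% of all 15521 genes tested were called and 2.03% were called higher. No member was called lower, where 0.122% of all genes were. Most of the rest lay higher in NSC Bmi1Over by amounts that did not pass the adjusted threshold. The log2 fold change was above 0 for 21 of the 25 tested members, against 48.6% of all genes tested, and its median was 0.54 over the members and -0.01 over all genes. In 18 of the 25 both NSC Bmi1Over libraries lay above both NSC libraries, and in 2 both lay below, against 29% and 30% of all genes. An unadjusted p under 0.05 was reached by 14 of the 25, against 24.2% of all genes. As these are bulk cultures, more cells that express a gene and more RNA per cell cannot be told apart.

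The number of members called depended on the test and on single libraries. DESeq2's Wald test on the same genes called 10 of the 25 members and 9.64% of all genes. Without NSC Bmi1Over replicate 2, the deepest library, edgeR called 0 members (0.838% of all genes), although 8 had an unadjusted p under 0.05, and the median log2 fold change of the members was 0.31. Without NSC replicate 1 it called only Fzd5 (1.12% of all genes). Without NSC replicate 2 it called 7 (9.87%), and without NSC Bmi1Over replicate 1 it called 10 (13%).

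**Figure D1:**
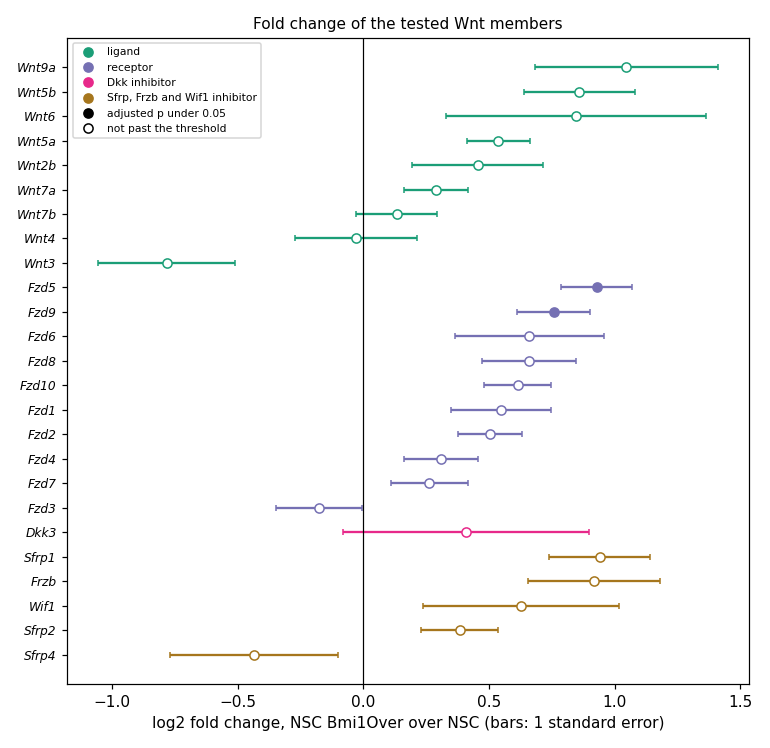
Log2 fold change of the 25 tested members, NSC Bmi1Over over NSC (n = 2 libraries each), from edgeR, with bars of 1 standard error. Filled points, Fzd5 and Fzd9, have an adjusted p under 0.05, and 21 of the 25 points lie to the right of 0.

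Frizzled proteins are receptors that span the membrane and carry a cysteine-rich outer domain that holds the ligand. All 10 were tested. Fzd5 (chr1:64730558-64737751, minus strand) stood at 16.4 and 17.2 CPM in NSC and at 29.3 and 34.5 CPM in NSC Bmi1Over. The mean level was 16.8 ± 0.538 CPM in NSC and 31.9 ± 3.71 CPM in NSC Bmi1Over (SD, n = 2), with no overlap between the groups. The log2 fold change was 0.93 (SE 0.14, adjusted p = 0.0249, edgeR). The call held in 12 of 13 alternative settings and was lost without NSC Bmi1Over replicate 2 (adjusted p = 0.0546). Of the exonic bases of Fzd5, 17.8% overlap Gm38058 on the other strand, which had at most 4 counts in any library, and since strand was ignored, reads of overlapping genes cannot be told apart.

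Fzd9 (chr5:135248938-135251230, minus strand) is annotated as a single exon, and it was the receptor with the highest level per length. It stood at 109 and 132 CPM in NSC and at 195 and 214 CPM in NSC Bmi1Over. Both NSC Bmi1Over libraries thus lay above both NSC libraries, with means of 121 ± 16.2 and 204 ± 13.4 CPM (SD, n = 2). The log2 fold change was 0.76 (SE 0.14, adjusted p = 0.0428, edgeR). It was called in 11 of 13 alternative settings, but not without NSC replicate 1 (adjusted p = 0.32) or without NSC Bmi1Over replicate 2 (adjusted p = 0.0812).

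Fzd10, Fzd1, Fzd2 and Fzd8 also lay higher in both NSC Bmi1Over libraries than in either NSC library, without passing the threshold in edgeR. Fzd10 stood at 47.1 and 55.9 CPM in NSC and at 76.3 and 81.4 CPM in NSC Bmi1Over (log2 fold change 0.61, SE 0.13, adjusted p = 0.0542). Fzd1, with Fzd2 and Fzd7 a member of the closely related group that relays canonical signals, stood at 131 and 184 CPM in NSC and at 199.8 and 260 CPM in NSC Bmi1Over (log2 fold change 0.55, SE 0.20, adjusted p = 0.145). The NSC libraries differed from each other in Fzd1 by more than NSC replicate 2 differed from NSC Bmi1Over replicate 1, and the log2 fold change was 0.32 without NSC replicate 1 and 0.34 without NSC Bmi1Over replicate 2. Fzd2 stood at 25.8 and 26.5 CPM in NSC and at 35.2 and 38.8 CPM in NSC Bmi1Over (log2 fold change 0.50, SE 0.13, adjusted p = 0.0717). Fzd8, a receptor of the same branch as Fzd5, stood at 9.54 and 12.1 CPM and at 15.3 and 18.7 CPM (log2 fold change 0.66, SE 0.19, adjusted p = 0.0887). These 4 were all called by DESeq2's Wald test, which called 6 of the 10 receptors and 9.64% of all genes.

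The remaining 4 receptors did not reach an unadjusted p of 0.05. Fzd4, which also binds the non-Wnt ligand Norrin, and Fzd6 were higher in both NSC Bmi1Over libraries, with log2 fold changes of 0.31 (SE 0.15) and 0.66 (SE 0.30). Without NSC replicate 1 that of Fzd4 was 0.17, and without NSC Bmi1Over replicate 2 that of Fzd4 was 0.21 and that of Fzd6 0.30. Fzd7 and Fzd3 overlapped between the groups. Fzd3, a receptor of the planar cell polarity pathway needed for axon tracts, was the one receptor with a fold change below 0 (log2 fold change -0.18, SE 0.17), and its value became 0.06 without NSC Bmi1Over replicate 2. It stood at 69.0 and 64.4 CPM in NSC and at 69.6 and 49.0 CPM in NSC Bmi1Over, so that replicate 2 of NSC Bmi1Over alone was low.

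To set genes beside each other, levels were divided by the length of their merged exons. On this scale (CPM per kilobase) Fzd9, Fzd1 and Fzd10 led the receptors in every library, and together they made up 78.4% and 82.1% of the summed receptor level in NSC and 82.9% and 83.8% in NSC Bmi1Over. Fzd9 stood at 47.7 and 57.6 CPM per kilobase in NSC and at 84.9 and 93.1 in NSC Bmi1Over, and Fzd1 at 31.2, 43.9, 47.6 and 62.0 in the same order. Fzd10 followed at 14.5 to 25.0, and Fzd2 at 7.05 to 10.6. In NSC, the levels of Fzd9 (52.7 ± 7.05) and Fzd1 (37.6 ± 9.01, SD, n = 2) did not overlap, but the lowest Fzd9 value was close to the highest Fzd1 value. Fzd6 was the lowest receptor in all libraries at 0.337 to 0.657 CPM per kilobase. The sum over the 10 receptors was 119 and 145 CPM per kilobase in NSC and 188 and 215 in NSC Bmi1Over.

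**Figure D2:**
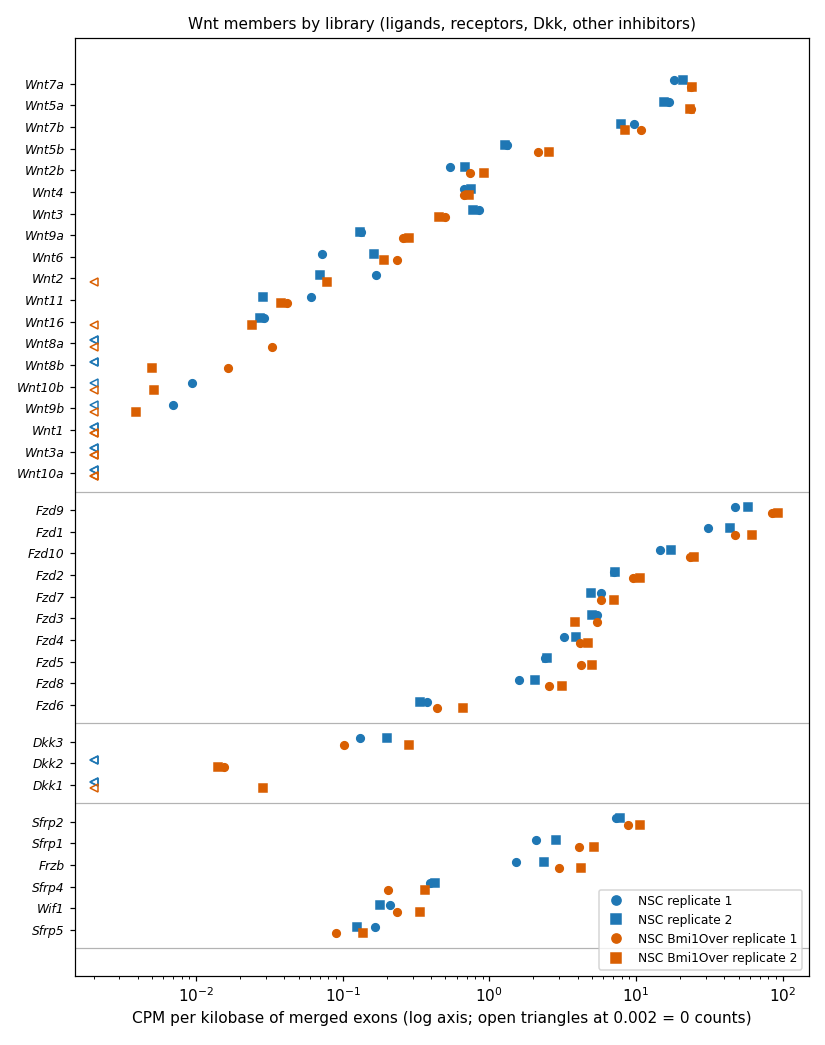
Level of each of the 38 members in the 4 RNASeq libraries, in CPM per kilobase of merged exons on a log axis, grouped from the top as ligands, receptors, Dkk inhibitors, and Sfrp, Frzb and Wif1 inhibitors. Open triangles stand for 0 counts, and the highest values are those of Fzd9 (47.7 to 93.1) and Fzd1 (31.2 to 62.0).

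Among the ligands, 9 of 19 had enough reads to be tested and 0 were called by edgeR, 5 had an unadjusted p under 0.05, and DESeq2 called Wnt5a and Wnt5b, against 2.15%, 24.2% and 9.64% of all genes. Wnt7a, Wnt5a and Wnt7b carried the ligand expression of these cells. They made up 92% and 91.9% of the summed ligand level per kilobase in NSC and 92.7% and 91.4% in NSC Bmi1Over. Wnt7a stood at 18.2 and 21.0 CPM per kilobase in NSC and at 23.8 and 24.1 in NSC Bmi1Over, and Wnt5a at 16.8, 15.6, 23.5 and 23.5 in the same order. Wnt7a was above Wnt5a in every library, by little in those of NSC Bmi1Over, while Wnt7b was lower at 7.89 to 10.9 CPM per kilobase. Wnt5b, the fourth, was at 1.28 to 2.54.

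Wnt5a, the prototype of ligands that signal through Ror receptors without β-catenin, stood at 132 and 122 CPM in NSC and at 184 and 184 CPM in NSC Bmi1Over (log2 fold change 0.54, SE 0.13, adjusted p = 0.0639, edgeR). Its paralogue Wnt5b was at 3.49 and 3.40 CPM in NSC and at 5.66 and 6.75 CPM in NSC Bmi1Over (log2 fold change 0.86, SE 0.22, adjusted p = 0.0760). In both genes the NSC Bmi1Over libraries lay well above the NSC libraries. Of the exonic bases of Wnt5a, 4.58% overlap Gm2670 on the other strand (18 to 53 counts per library), and of those of Wnt7b, 6.61% overlap AU022754 (12 to 51 counts). Wnt7a, a ligand made by cortical progenitors that needs Reck and Adgra2 on vessel cells to act there, was at 57.8 and 66.7 CPM and at 75.4 and 76.6 CPM (log2 fold change 0.29, SE 0.13, adjusted p = 0.204, and 0.19 without NSC replicate 1). Wnt7b, its closest relative, was at 47.4 and 38.6 CPM in NSC and at 53.4 and 41.5 CPM in NSC Bmi1Over, so that the groups overlapped (log2 fold change 0.13, SE 0.16, adjusted p = 0.63). The sign for Wnt7b turned with library size as the only scaling (-0.016), without NSC replicate 2 (-0.005) and without NSC Bmi1Over replicate 1 (-0.048).

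The weakly expressed ligands did not all lie on the same side. Wnt3 was the member with the lowest log2 fold change, -0.78 (SE 0.27, adjusted p = 0.132), at 2.63 and 2.37 CPM in NSC and 1.54 and 1.40 CPM in NSC Bmi1Over. Wnt9a had the highest log2 fold change of all members, 1.05 (SE 0.36, adjusted p = 0.132), at 0.444 and 0.435 CPM in NSC and 0.857 and 0.945 CPM in NSC Bmi1Over. These values rest on few reads, 27 to 83 counts per library for Wnt3 and 11 to 54 for Wnt9a. Wnt2b, a ligand of the cortical hem, was at 2.28 and 2.85 CPM in NSC and 3.09 and 3.83 CPM in NSC Bmi1Over (log2 fold change 0.46, SE 0.26, adjusted p = 0.308), with a value of 0.30 without NSC replicate 1 and of 0.27 without NSC Bmi1Over replicate 2. Wnt4 was at 2.82 and 3.17 CPM in NSC and 2.80 and 3.03 CPM in NSC Bmi1Over, the member with the fold change nearest 0 (log2 fold change -0.03, SE 0.24, adjusted p = 0.953). Wnt6, the last ligand tested, lay at 0.158 to 0.514 CPM.

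The other 10 ligands did not pass the filter on low counts and had at most 12 counts in any library. Wnt1, Wnt3a and Wnt10a had 0 counts in all 4, where 3 counts would correspond to 0.0951, 0.119, 0.171 and 0.0525 CPM in NSC replicates 1 and 2 and NSC Bmi1Over replicates 1 and 2. Wnt1 and Wnt3a are dorsal midline ligands of the embryonic neural tube. Wnt8b, another ligand of the cortical hem, had 0, 0, 1 and 1 counts, and Wnt8a, Wnt9b and Wnt10b had at most 1 count in any library. Expression of Wnt1, Wnt3a and Wnt10a was not detectable at this depth.

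Of the secreted inhibitors, 6 of 9 were tested and 0 were called by edgeR, 3 had an unadjusted p under 0.05, and DESeq2 called Sfrp1 and Frzb, against 2.15%, 24.2% and 9.64% of all genes. Sfrp1 stood at 9.03 and 12.4 CPM in NSC and at 18 and 22.8 CPM in NSC Bmi1Over (log2 fold change 0.94, SE 0.20, adjusted p = 0.0526, edgeR). Frzb, also called Sfrp3, stood at 4.91 and 7.59 CPM and at 9.65 and 13.6 CPM (log2 fold change 0.92, SE 0.26, adjusted p = 0.0897). Sfrp2 stood at 15.8 and 16.6 CPM and at 19 and 23 CPM (log2 fold change 0.38, SE 0.15, adjusted p = 0.173), with a log2 fold change of 0.23 without NSC Bmi1Over replicate 2. In each of these 3 genes both NSC Bmi1Over libraries were above both NSC libraries, and NSC Bmi1Over replicate 2 was the highest library. Of the exonic bases of Sfrp2, 16.1% overlap Gm26771 on the other strand, which had at most 3 counts.

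Sfrp2 led the inhibitors per length, at 7.32 and 7.74 CPM per kilobase in NSC and at 8.84 and 10.7 in NSC Bmi1Over, and Sfrp1 followed at 2.07 to 5.20. The share of Sfrp2 in the summed level of its group was 62.7% and 56.7% in NSC and 53.7% and 51% in NSC Bmi1Over. Sfrp4 was lower in both NSC Bmi1Over libraries (1.65 and 1.78 against 0.857 and 1.52 CPM, log2 fold change -0.43, SE 0.34, adjusted p = 0.441), with a value of -0.16 without NSC Bmi1Over replicate 1 and of -0.99 without NSC Bmi1Over replicate 2. Wif1 lay at 0.435 to 0.823 CPM, and Sfrp5, which was not tested, at 0.171 to 0.317 CPM.

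The Dkk genes were close to silent. Dkk3, a divergent family member with no settled effect on Wnt signals, stood at 0.444 and 0.672 CPM in NSC and at 0.343 and 0.945 CPM in NSC Bmi1Over, and was the one Dkk gene tested (log2 fold change 0.41, SE 0.49, adjusted p = 0.623). Its groups overlapped, and without NSC Bmi1Over replicate 2 the log2 fold change was -0.68. Dkk2 had 0 and 0 counts in NSC and 1 and 3 in NSC Bmi1Over. Dkk1, itself a target of β-catenin, had 4 counts in NSC Bmi1Over replicate 2 and 0 in the other libraries. No fold change can be read from either.

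H3K27me3 was next compared at the promoters, taken as the window within 5 kb of any annotated start of transcription. The deposited peaks were called in each library separately, with 1 library per condition, so that the lists are described without a test. The ligands and the inhibitors were widely marked. A peak was found at 0 of the 10 receptors, which is near what the share over all protein-coding genes (8.89% in NSC) gives for 10 genes. A promoter peak was found at 19 of 38 members in NSC (50%), against 8.89% of 22028 protein-coding genes, and at 11 in NSC Bmi1Over (28.9%), against 4.44%. By role, 14 of 19 ligands, 0 of 10 receptors, 2 of 3 Dkk genes and 3 of 6 Sfrp, Frzb and Wif1 genes were marked in NSC, and 7, 0, 1 and 3 in NSC Bmi1Over. The ligands without a peak in either list were Wnt2, Wnt5a, Wnt5b, Wnt7a and Wnt8a.

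All 11 members with a peak in NSC Bmi1Over also had one in NSC (4.19% of protein-coding genes were in both lists), and 8 were marked in NSC alone (4.7%). Those 8 were Wnt2b, Wnt3, Wnt4, Wnt7b, Wnt9a, Wnt10b, Wnt16 and Dkk2. The NSC list was longer as a whole, with 12982 peaks over 11542075 bp against 6810 over 4807073 bp, and by the study's methods the deepest NSC library held more aligned reads than either library of NSC Bmi1Over, with the weaker library of each condition dropped. A list made shorter by fewer reads and a loss of the mark cannot be told apart. The windows of the members held 59 distinct peaks in NSC, with a median fold enrichment over background of 4.21, and 34 in NSC Bmi1Over, with a median of 4.8. These medians rest on unlike lower limits, since the lowest fold enrichment in the whole list was 3.52 in NSC and 4.03 in NSC Bmi1Over. The highest value in the windows was 6.49 in NSC and 6.12 in NSC Bmi1Over. A peak over an annotated start was found at 12 members in NSC and at 3 in NSC Bmi1Over, Wnt8b, Dkk1 and Sfrp5. The same share over all protein-coding genes was not counted, so this difference is not read as particular to the members.

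**Figure D3:**
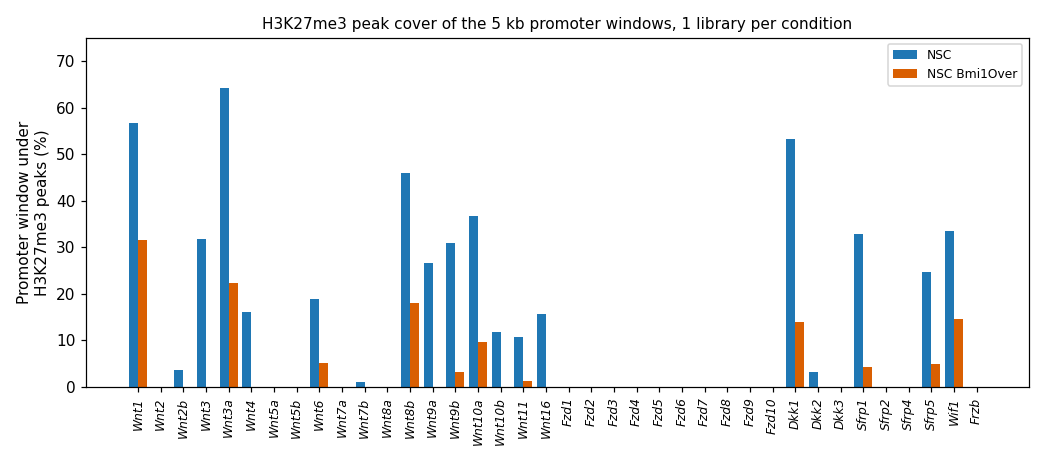
Share of each member's promoter window (5 kb to each side of its annotated starts, merged) that lay under deposited H3K27me3 peaks, in percent, with 1 library per condition. Bars are highest at Wnt3a, Wnt1 and Dkk1 (64.2%, 56.7% and 53.2% in NSC), and all 10 receptors are at 0.

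Wnt3a carried the widest peak of the set. In NSC 1 peak of 6425 bp (chr11:59287051-59293475, fold enrichment 6.24, −log10 q of 7.73) spanned the start and covered 64.2% of the window, including all 300 bases of the promoter printed above. In NSC Bmi1Over the same window held 4 peaks of 220 to 1075 bp that covered 22.4% of it and none of those 300 bases. Wnt1 had the same form, with 1 peak of 5666 bp in NSC (chr15:98788979-98794644, fold enrichment 6.49) and 5 peaks in NSC Bmi1Over, the widest of 1233 bp, all past the start. Both ligands had 0 counts of RNA in all 4 libraries, so the narrower cover in NSC Bmi1Over was not accompanied by detectable RNA.

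The inhibitors Dkk1 and Wif1 were marked in a similar way. Dkk1 had a peak of 4207 bp over its start in NSC (chr19:30546861-30551067), and a peak of 548 bp there in NSC Bmi1Over (chr19:30549581-30550128) that covered 166 of the 300 bases printed above. Wif1 had a peak of 4686 bp just inside the gene in NSC (chr10:121034304-121038989) and 6 peaks of 301 to 840 bp in NSC Bmi1Over. At all 11 members marked in both lists the covered length was shorter in NSC Bmi1Over, from 10.5% to 55.8% of the length in NSC. The whole NSC Bmi1Over list also covered less, 4807073 bp against 11542075 bp. The share of all genes with shorter cover was not counted, so shorter cover is not read as particular to the members.

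**Figure D4:**
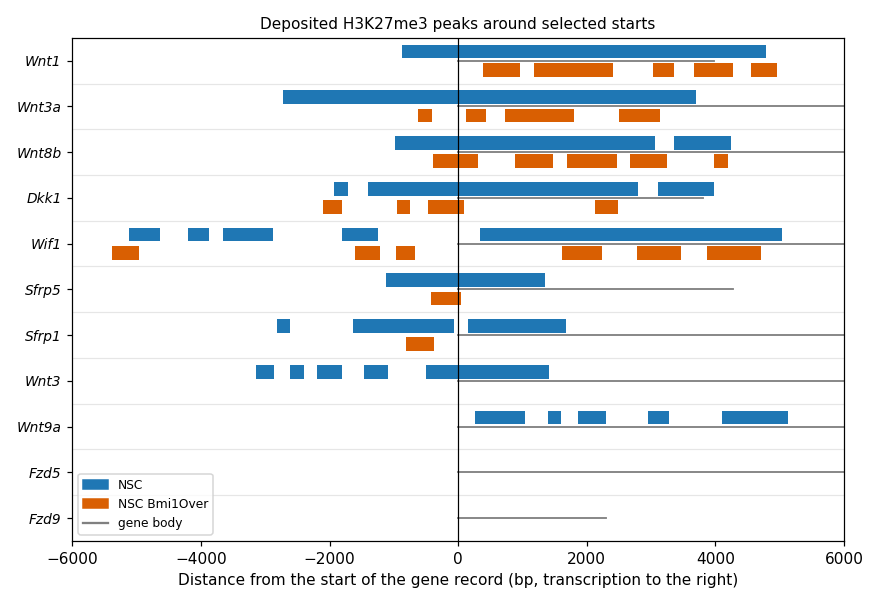
Deposited H3K27me3 peaks of NSC (upper bars) and NSC Bmi1Over (lower bars) against distance in bp from the start of the gene record, with transcription to the right and the gene body as a thin line. Wide NSC peaks at Wnt1, Wnt3a and Dkk1 (5666, 6425 and 4207 bp) face several short NSC Bmi1Over peaks, Wnt3 and Wnt9a have peaks in NSC alone, and Fzd5 and Fzd9 have none.

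Several marked ligands are neighbours on the chromosome. Wnt1 and Wnt10b lie 11706 bp apart on chromosome 15, Wnt3 and Wnt9b 24328 bp apart and Wnt3a and Wnt9a 16175 bp apart on chromosome 11, and Wnt6 and Wnt10a 6193 bp apart on chromosome 1. All 8 of these genes were marked in NSC. Wnt6 and Wnt10a share 1 NSC peak of 200 bp (chr1:74786985-74787184), which lies in both windows and is counted for both genes. In the first 3 pairs 1 gene was marked in both lists and its neighbour in NSC alone.

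Marked members were expressed at low levels. In NSC replicates 1 and 2 and NSC Bmi1Over replicates 1 and 2, the median level of the 19 members marked in NSC was 0.158, 0.119, 0.171 and 0.158 CPM, and that of the 19 members marked in neither list was 16.4, 17.2, 26.1 and 31.5 CPM. Over all protein-coding genes, those marked in NSC had a median of 0.396 to 0.525 CPM and those marked in neither a median of 5.32 to 5.73 CPM. Only 8 of the 19 marked members had enough reads to be tested, against 17 of the 19 others, and among protein-coding genes 53.5% of those marked in NSC and 61.8% of those marked in neither list were tested. Sfrp1 was the highest marked inhibitor at 9.03 to 22.8 CPM, with an NSC peak of 1567 bp that ended 63 bp before its start, another of 1522 bp that began 151 bp past it, and 1 peak of 435 bp in NSC Bmi1Over (chr8:23410691-23411125). Wnt7b, the highest marked ligand, had 1 peak of 255 bp in NSC that covered 1.04% of its window.

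**Figure D5:**
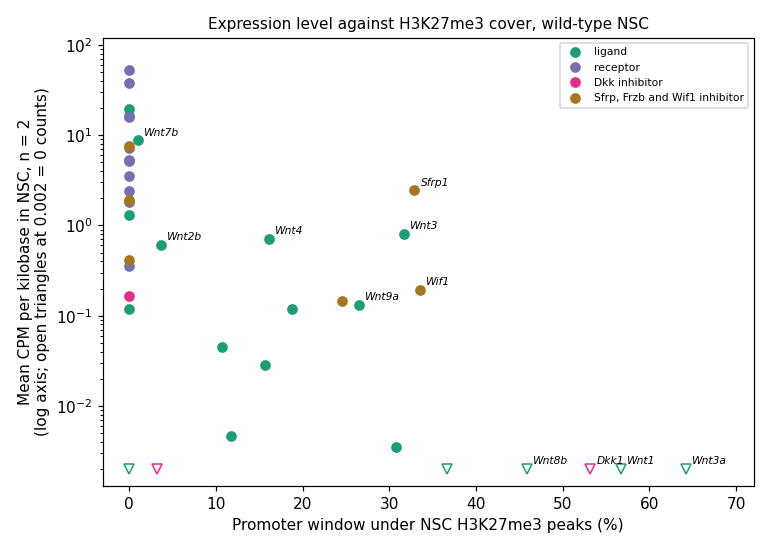
Mean level of each member in NSC (n = 2 libraries, CPM per kilobase, log axis) against the share of its promoter window under NSC H3K27me3 peaks. Receptors stand at 0% cover, Wnt1 and Wnt3a stand at 0 counts with 56.7% and 64.2% cover, and Sfrp1 and Wnt3 combine 2.45 and 0.813 CPM per kilobase with 32.9% and 31.7% cover.

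The 5 tested members that were marked in NSC alone (Wnt2b, Wnt3, Wnt4, Wnt7b and Wnt9a) did not share a direction of expression, with log2 fold changes of 0.46, -0.78, -0.03, 0.13 and 1.05. Wnt3 and Wnt9a had the lowest and the highest value of all tested members, and both had 5 peaks in NSC and 0 in NSC Bmi1Over. Neither of the 2 called members, Fzd5 and Fzd9, had a promoter peak in either list, where 8.89% of protein-coding genes had one in NSC and 4.44% in NSC Bmi1Over.

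Other genes of the pathway were taken as lists by their place in it. All 8 co-receptors and alternative receptors had a log2 fold change above 0 (median 0.52), and 0 were called by edgeR, 6 having an unadjusted p under 0.05 and 4 being called by DESeq2, where the shares over all genes were 48.6% above 0, 24.2% with such a p and 9.64% called by DESeq2. Ptk7, a planar polarity receptor, stood at 135, 178, 209 and 286 CPM in NSC and then NSC Bmi1Over replicates (log2 fold change 0.67, SE 0.20, adjusted p = 0.0942), and Ryk at 135, 146, 185 and 179.8 CPM (log2 fold change 0.38, SE 0.13, adjusted p = 0.123). Of the secretion genes, Wls, the carrier that takes every Wnt ligand to the cell surface, rose from 256 and 297 CPM in NSC to 525 and 513 CPM in NSC Bmi1Over (log2 fold change 0.91, SE 0.15, adjusted p = 0.0370, edgeR), where 2.03% of all genes were called higher. The call was lost without NSC replicate 1 (adjusted p = 0.213) and narrowly without NSC Bmi1Over replicate 2 (0.0501). Porcn, the enzyme that adds the lipid, was at 25.5, 28.5, 27.5 and 37.7 CPM (log2 fold change 0.28, SE 0.17, adjusted p = 0.329).

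Among 14 other modulators, 9 were tested and 2 rose, where 2.03% of all genes tested were called higher. Sostdc1, a secreted antagonist of Wnt and BMP signals, stood at 4.47 and 9.73 CPM in NSC and at 21.5 and 21.7 CPM in NSC Bmi1Over (log2 fold change 1.62, SE 0.30, adjusted p = 0.0414). Gpc4, a surface glypican that holds Wnt ligands and led this list per length, stood at 51.6 and 63.7 CPM and at 97.4 and 123 CPM (log2 fold change 0.94, SE 0.16, adjusted p = 0.0370). Both calls were lost without NSC Bmi1Over replicate 2 (adjusted p = 0.0754 and 0.0613), and that of Gpc4 also without NSC replicate 1 (0.0561). Kremen1, a receptor of Dkk proteins and next per length, was at 97.0, 106, 130 and 135 CPM (log2 fold change 0.39, SE 0.12, adjusted p = 0.112).

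In the R-spondin axis 5 of 9 genes were tested and 1 rose, beside the same 2.03%. Lgr4, an R-spondin receptor, stood at 27 and 29.4 CPM in NSC and at 42.6 and 53.6 CPM in NSC Bmi1Over (log2 fold change 0.78, SE 0.15, adjusted p = 0.0419), a call lost without NSC replicate 1 (adjusted p = 0.113) and without NSC Bmi1Over replicate 2 (0.0844). Znrf3, the ligase that removes Frizzled receptors from the surface, led this list per length with Lgr4 second, at 58.0 and 76.1 CPM in NSC and 85.9 and 101 CPM in NSC Bmi1Over (log2 fold change 0.48, SE 0.16, adjusted p = 0.121). The R-spondin ligands Rspo1 to Rspo4 stayed at or below 0.514 CPM.

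Genes of the relay and of the nucleus lay on both sides of 0. Of 14 genes of the cytoplasmic relay and destruction complex, 5 had a log2 fold change above 0 and the median was -0.09 (-0.04 without NSC replicate 2, -0.24 with library size alone), with 0 called by edgeR (3 with an unadjusted p under 0.05, against 24.2% of all genes) and 0 by DESeq2. Ctnnb1, which encodes β-catenin and had the highest level per length of this list, stood at 855, 1042, 1192 and 854 CPM (log2 fold change 0.11, SE 0.22, adjusted p = 0.778), and Apc, a scaffold of the destruction complex and next per length, at 525, 663, 723 and 628 CPM (log2 fold change 0.19, SE 0.19, adjusted p = 0.552). Of 12 nuclear factors 1 was called, where 2.03% of all genes were called higher. Tcf7l2, a DNA-binding partner of β-catenin, rose from 28.0 and 26.3 CPM to 43.4 and 40.9 CPM (log2 fold change 0.63, SE 0.12, adjusted p = 0.0451, edgeR). It was called in 8 of 13 alternative settings. The call was lost, among others, in libraries thinned to the shallowest and without NSC replicate 1, NSC replicate 2 or NSC Bmi1Over replicate 2. The median of this list was 0.06 (0.09 without NSC replicate 2, and -0.09 with library size alone), and its 2 genes with the highest level per length, Tle4 and Pygo2, had log2 fold changes of 0.10 (SE 0.14) and 0.07 (SE 0.12).

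Of 19 canonical target genes 16 were tested, 11 had a log2 fold change above 0 (median 0.28), and 0 were called by edgeR, 8 having an unadjusted p under 0.05 and 2 being called by DESeq2, against 24.2% and 9.64% of all genes. Their median was 0.12 without NSC replicate 1, 0.50 without NSC replicate 2, 0.44 without NSC Bmi1Over replicate 1, 0.17 without NSC Bmi1Over replicate 2 and 0.13 with library size alone. The target list repeats Lef1, Tcf7, Lgr5, Rnf43, Znrf3, Notum, Apcdd1 and Dkk1 from the lists above or from the members. Its counts are therefore not independent of theirs. Axin2, the target most widely used as a readout of β-catenin, stood at 48.8 and 61.7 CPM in NSC and at 52.3 and 71.4 CPM in NSC Bmi1Over (log2 fold change 0.17, SE 0.18, adjusted p = 0.576). Its groups overlapped, and in both conditions replicate 2 was higher than replicate 1. Ccnd1 and Tnfrsf19, the 2 targets with the highest level per length, had log2 fold changes of -0.10 (SE 0.19) and 0.40 (SE 0.18, adjusted p = 0.219). Of the 8 planar cell polarity genes tested all had a log2 fold change above 0 (median 0.16), and 0 were called by edgeR (3 with an unadjusted p under 0.05) and 1 by DESeq2, beside the same shares. Of these 8 genes, 6 lay above 0 without NSC replicate 2, the median was 0.27 without NSC replicate 1 and 0.32 without NSC Bmi1Over replicate 1, and with library size as the only scaling 5 lay above 0 with a median of 0.004. Celsr2 and Vangl2 led this list per length, with log2 fold changes of 0.50 (SE 0.19) and 0.41 (SE 0.14).

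Markers of other cell types that cultures of the forebrain could hold were read beside these values. Of the neuronal markers Syt1 was called higher in NSC Bmi1Over (9.13, 27.2, 66.5 and 95.8 CPM, log2 fold change 2.18, adjusted p = 0.0428, edgeR), where 2.03% of all genes were called higher. The summed level of the 8 neuronal genes was 946 to 971 CPM in NSC and 926 to 1012 CPM in NSC Bmi1Over, mostly Map2 (788 to 919 CPM), while Neurod6 was at 0 counts in all 4 libraries. Of the 6 neuronal genes tested, 2 had a log2 fold change above 0, and the median was -0.14 (-0.06 to -0.26 with single libraries left out, -0.30 with library size alone). Of the 6 astrocyte markers 2 had a log2 fold change above 0, with a median of -0.17 (-0.15 to -0.48 with single libraries left out, -0.32 with library size alone). Aldh1l1 was called lower (log2 fold change -0.86, adjusted p = 0.0440, edgeR), as were 0.122% of all genes, and DESeq2 called 2 of the 6 astrocyte markers, against 9.64% of all genes. The astrocyte genes stood at a sum of 416 to 450 CPM in NSC and 369 to 441 CPM in NSC Bmi1Over, mostly Slc1a2 (196 to 316 CPM), while Gfap was at most at 0.77 CPM. Of the 6 choroid plexus markers 2 were tested and Folr1 was called higher (log2 fold change 2.53, adjusted p = 0.00908), beside 2.03% of all genes. The sum of this list, 11.2 to 21.1 CPM in NSC and 21.7 to 32.2 CPM in NSC Bmi1Over, was mostly Otx2 (10.0 to 25.7 CPM, groups overlapping), while Ttr, the most abundant gene of that tissue, was at most at 0.175 CPM. The call of Syt1 was lost with DESeq2 size factors and without NSC Bmi1Over replicate 2, and that of Aldh1l1 without that library and without NSC replicate 1. No gene of the other lists was called by edgeR in the main fit or by DESeq2. Their sums in NSC and NSC Bmi1Over were 237 to 314 and 275 to 485 CPM for the oligodendrocyte lineage, 12.2 to 12.3 and 12.4 to 13.5 CPM for mesenchymal cells, 2.57 to 3.05 and 3.60 to 4.04 CPM for the cortical hem, 2.66 to 3.88 and 4.97 to 5.53 CPM for endothelium, 1.30 to 1.98 and 2.46 to 3.10 CPM for microglia, and 0.514 to 0.602 and 0.400 to 0.578 CPM for erythroid cells. Wnt3a of the hem list, Cldn5 of the endothelial list, and Hba-a1 and Hbb-bs of the erythroid list were at 0 counts in all 4 libraries. The hem list holds the members Wnt2b, Wnt3a and Wnt8b, and its sum was mostly Wnt2b (2.28 to 3.83 CPM), its only tested gene. That sum is therefore not independent of the Wnt values. Of the 5, 3, 1, 2, 1 and 1 genes tested in these 6 lists, 0, 0, 0, 1, 1 and 0 had an unadjusted p under 0.05, against 24.2% of all genes. The oligodendrocyte sum was mostly Cspg4 (197 to 424.5 CPM), the mesenchymal sum Foxc1 (10.7 to 11.7 CPM) and the microglial sum P2ry12 (1.27 to 2.96 CPM). The collagen genes of the mesenchymal list stayed at or below 0.989 CPM, and the other microglial genes at or below 0.119 CPM. In the oligodendrocyte list, edgeR called 1 gene without a filter on low counts and 1 with the replicate block. The median log2 fold change of that list was 0.19, and -0.92 to 0.52 with single libraries left out. Sox10 stood at 0.286 and 4.64 CPM in NSC Bmi1Over replicates 1 and 2. The part of all these cell types in the levels of the Wnt genes was not tested.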

How the data were processed

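RNASeq values were raw read counts per gene as deposited: the authors trimmed reads with Trim Galore and aligned them to mm10 with STAR, which counted reads without regard to strand. H3K27me3 peaks were deposited as the authors' MACS2 broad peaks, called per library on reads aligned with Bowtie2 2.3.4, with multi-mapped reads discarded and 1 library kept per condition. Each deposited peak carries a fold enrichment over background (a ratio), −log10 values of p and q, and a display score, which the authors' peak caller derived from q and which was not used here.

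Counts of the 4 NSC and NSC Bmi1Over libraries, grouped by their labels, were analysed with edgeR 4.0.16 (limma 3.58.1, R 4.3.3): filterByExpr kept 15521 of 50686 genes, TMM scaling was applied, and a quasi-likelihood F-test without replicate block was run, with Benjamini-Hochberg adjusted p under 0.05 over all genes as the threshold. Between 27.8% and 34.1% of reads per library were unmapped, multi-mapped, outside genes or ambiguous and were left out. The dispersion between replicates corresponded to a coefficient of variation of 12.9%. Symbols, exon lengths and starts came from GENCODE vM21, which matched 50462 identifiers. A promoter peak was a peak with at least 1 bp within 5 kb of any annotated start, handled in Python 3.11.15. Alternatives were DESeq2 1.42.0, other scalings and filters, the stranded counts, protein-coding genes only, thinned libraries, a replicate block, each library left out in turn, and other windows and peak limits.

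The members and the gene lists were chosen with earlier results of these data known. Values in all libraries were given for members that were called or had an unadjusted p under 0.05, for the 4 ligands, 4 receptors and 2 of each inhibitor group with the highest level per length, and for tested members marked in 1 peak list alone. Of the other lists (co-receptors, secretion, other modulators, R-spondin axis, cytoplasmic relay, nuclear factors, canonical targets, planar cell polarity, and markers of 10 cell types), the called genes were named, with the 2 highest genes per length of each pathway list, and Axin2. Libraries of mGIC were not used here. Floors given for 0 counts cover counting error only.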

Additional observations from a re-analysis of the deposited data

How the results depend on the processing

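Fzd5 and Fzd9 remained the members called with DESeq2 size factors, a filter of at least 1 CPM in 2 libraries, the stranded counts, protein-coding genes only and thinned libraries. DESeq2's Wald test called 1496 genes and 10 members, and edgeR without a filter on low counts 2356 and 10, of 35 members tested, against 334 and 2 as reported. With library size as the only scaling, 537 genes and 3 members (Sfrp1 added) were called, the median over all genes moved from -0.01 to -0.165 (log2), 20 of 25 members stayed above 0 with a median of 0.39, and 64.4% of calls were higher in NSC Bmi1Over against 94.3%. Leaving out single libraries gave 130 to 2013 genes and 0 to 10 members. With the replicate block, which leaves 1 residual degree of freedom, 3459 genes (70.3% higher) and 11 members were called. Same-numbered libraries deviated together only weakly (r = 0.169 across genes, which are not independent replicates) in the only 2 pairs, so that the numbers were not taken to pair the libraries. Signs turned for Wnt4 (-0.11 to 0.054 over the libraries left out), Wnt7b (-0.048 to 0.31, and -0.016 with library size alone), Fzd3 (-0.44 to 0.06) and Dkk3 (-0.68 to 0.78), none of which was called in any setting, and the cause was not tested. The count of members with a promoter peak (19, 11 and 11 in NSC, NSC Bmi1Over and both) fell to 7 in NSC Bmi1Over and 7 in both for −log10 q of at least 3, to 11, 5 and 5 for a fold enrichment of at least 5, and to 12, 2 and 2 for peaks of at least 1000 bp. Over all protein-coding genes the shares fell from 8.89%, 4.44% and 4.19% to 5.8%, 3.1% and 2.9% for that limit on q. They were 3.12%, 2.59% and 2.21% for that fold enrichment, and 3.95%, 1.55% and 1.55% for that length. All members marked in NSC Bmi1Over were marked in NSC under each of these limits. With a median standard error of 0.20 (log2) over the tested members, small differences were not detectable.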
